A study of Mus musculus with 28 samples.

Results

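Astrocytes keep the extracellular space of the brain in balance, and 10 genes that mark this homeostatic state were followed: Aqp4, Slc1a2, Slc1a3, Gja1, Gjb6, Aldh1l1, Fgfr3, Glul, Aldoc and Sox9. They were chosen by name, as the gene IDs of the deposited count tables that map to these symbols, and all 10 were found among 55487 gene IDs. Their products fall into a few roles. Slc1a2 (GLT-1) and Slc1a3 (GLAST) are the transporters that clear synaptic glutamate, and Glul (glutamine synthetase) turns that glutamate into glutamine. Aqp4 is the water channel of astrocyte endfeet, and Gja1 (connexin 43) and Gjb6 (connexin 30) form the gap junctions that couple astrocytes. Aldoc and Aldh1l1 are enzymes of glycolysis and of folate metabolism, Fgfr3 is a fibroblast growth factor receptor, and Sox9 is a transcription factor of the astrocyte lineage. In Alzheimer's disease models astrocytes near plaques become reactive and raise Gfap, and how their homeostatic genes behave in that state is a recurring question.

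The hippocampus of mice 9 months of age was sequenced as polyadenylated RNA after behavioural tests, in 2 cohorts with their own wild-type (WT) mice. The Ripk1 cohort holds WT, 5xFAD, Ripk1 D138N/D138N (D138N) and D138N 5xFAD mice, and the Zbp1 cohort holds WT, 5xFAD, Zbp1-/- (KO) and KO 5xFAD mice, with 3 libraries per genotype and 24 in all. 5xFAD mice carry transgenes with mutations of familial Alzheimer's disease, mutant human APP among them, under the neuronal Thy1 promoter, so the transgenes act from neurons and not from astrocytes. D138N removes the kinase activity of RIPK1, and ZBP1 is a nucleic acid sensor that signals through RIPK1 and RIPK3; both mutations are constitutive, so no result is tied to 1 cell type. A further 4 libraries hold RNA from a ZBP1 immunoprecipitation (IP) and its input, from WT and 5xFAD hippocampus, with 1 library each. The data ask whether 5xFAD changes the astrocyte genes and whether either mutation alters that.

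Of the members called (adjusted p under 0.05) in 5xFAD against WT in either cohort, the promoters of 4 are printed to show what sequence lies upstream of genes that rose and genes that fell. Of the 10 genes, 8 matched an entry of the RefSeq promoter table (build GRCm38.p6); Aqp4 and Sox9 were named only. The table's start for Slc1a2 lies 48 kb inside the annotated gene, so the bases before it are not printed. Each line gives the 250 bases before the listed start, 5′ to 3′ on the gene's strand, with motif matches in capitals.
Fgfr3, chr5:33721474-33721723, plus strand: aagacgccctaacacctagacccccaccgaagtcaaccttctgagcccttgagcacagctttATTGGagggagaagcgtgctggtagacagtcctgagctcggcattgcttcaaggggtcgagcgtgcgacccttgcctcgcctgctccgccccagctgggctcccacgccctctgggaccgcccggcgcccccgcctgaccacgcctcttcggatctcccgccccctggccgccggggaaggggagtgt
Slc1a3, chr15:8710808-8711057, minus strand: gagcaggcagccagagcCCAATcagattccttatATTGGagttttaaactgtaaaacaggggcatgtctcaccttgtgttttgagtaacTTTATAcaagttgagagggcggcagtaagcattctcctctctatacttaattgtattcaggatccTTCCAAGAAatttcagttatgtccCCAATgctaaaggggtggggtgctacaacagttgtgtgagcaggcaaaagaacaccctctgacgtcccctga
Aldh1l1, chr6:90550543-90550792, plus strand: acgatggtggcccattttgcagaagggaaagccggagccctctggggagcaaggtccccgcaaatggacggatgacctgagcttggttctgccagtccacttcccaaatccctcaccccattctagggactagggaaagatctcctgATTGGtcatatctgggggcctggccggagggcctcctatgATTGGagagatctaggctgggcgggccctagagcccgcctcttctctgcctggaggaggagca
Aldoc, chr11:78322823-78323072, plus strand: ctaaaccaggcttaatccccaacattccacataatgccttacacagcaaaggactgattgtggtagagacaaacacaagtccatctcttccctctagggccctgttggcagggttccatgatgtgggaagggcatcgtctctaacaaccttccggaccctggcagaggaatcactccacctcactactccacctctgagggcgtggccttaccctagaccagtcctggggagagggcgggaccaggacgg
The search covered both strands for TTCNNNGAA (STAT type, held by 7.02% of all 32851 promoter windows of this length), ACAATG (SOX type, 10.7%), CCAAT (33.8%) and TATAAA (12.4%). Aldoc held no match in this window. Slc1a3 held 1 STAT-type match, 3 CCAAT and 1 TATAAA, Aldh1l1 held 2 CCAAT, and Fgfr3 held 1 CCAAT. The GC content was 44.8% for Slc1a3, 55.2% for Aldoc, 59.6% for Aldh1l1 and 66.8% for Fgfr3. A match is only a description of the letters. Fgfr3 and Aldoc each have 2 listed starts, and the first one is shown; the last 25 bases of the Aldh1l1 window lie inside the annotated gene.

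Depth ran from 16.6 to 44.8 M counts per Ripk1 cohort library and from 8.4 M (WT 1) to 34.6 M counts per Zbp1 cohort library, and the members together took 0.689% to 0.99% of each library. Zbp1 lay at 0, 0 and 0.319 CPM (counts per M counts, after TMM scaling within the cohort) in KO and at 0.298 to 0.351 in KO 5xFAD, against 1.79 to 3.58 in the Zbp1 cohort's 5xFAD. It was as low in that cohort's WT (0 to 0.383 CPM), so it checks the label only in 5xFAD mice, and a point mutation such as D138N leaves no trace in counts. Libraries with the 5xFAD label had 1462 to 2740 CPM of Thy1 against 513 to 662 in all others. Ranges over both cohorts set values scaled separately in each cohort side by side, with no test. No member was at 0 in any hippocampal library. In the Zbp1 cohort WT 2 and 5xFAD 2 stood apart, with 994 and 791 CPM of the nuclear RNA Malat1 where every other library had 1938 or more. Choroid plexus markers varied between 49.1 and 4790 summed CPM with no order by genotype.

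**Figure D1:**
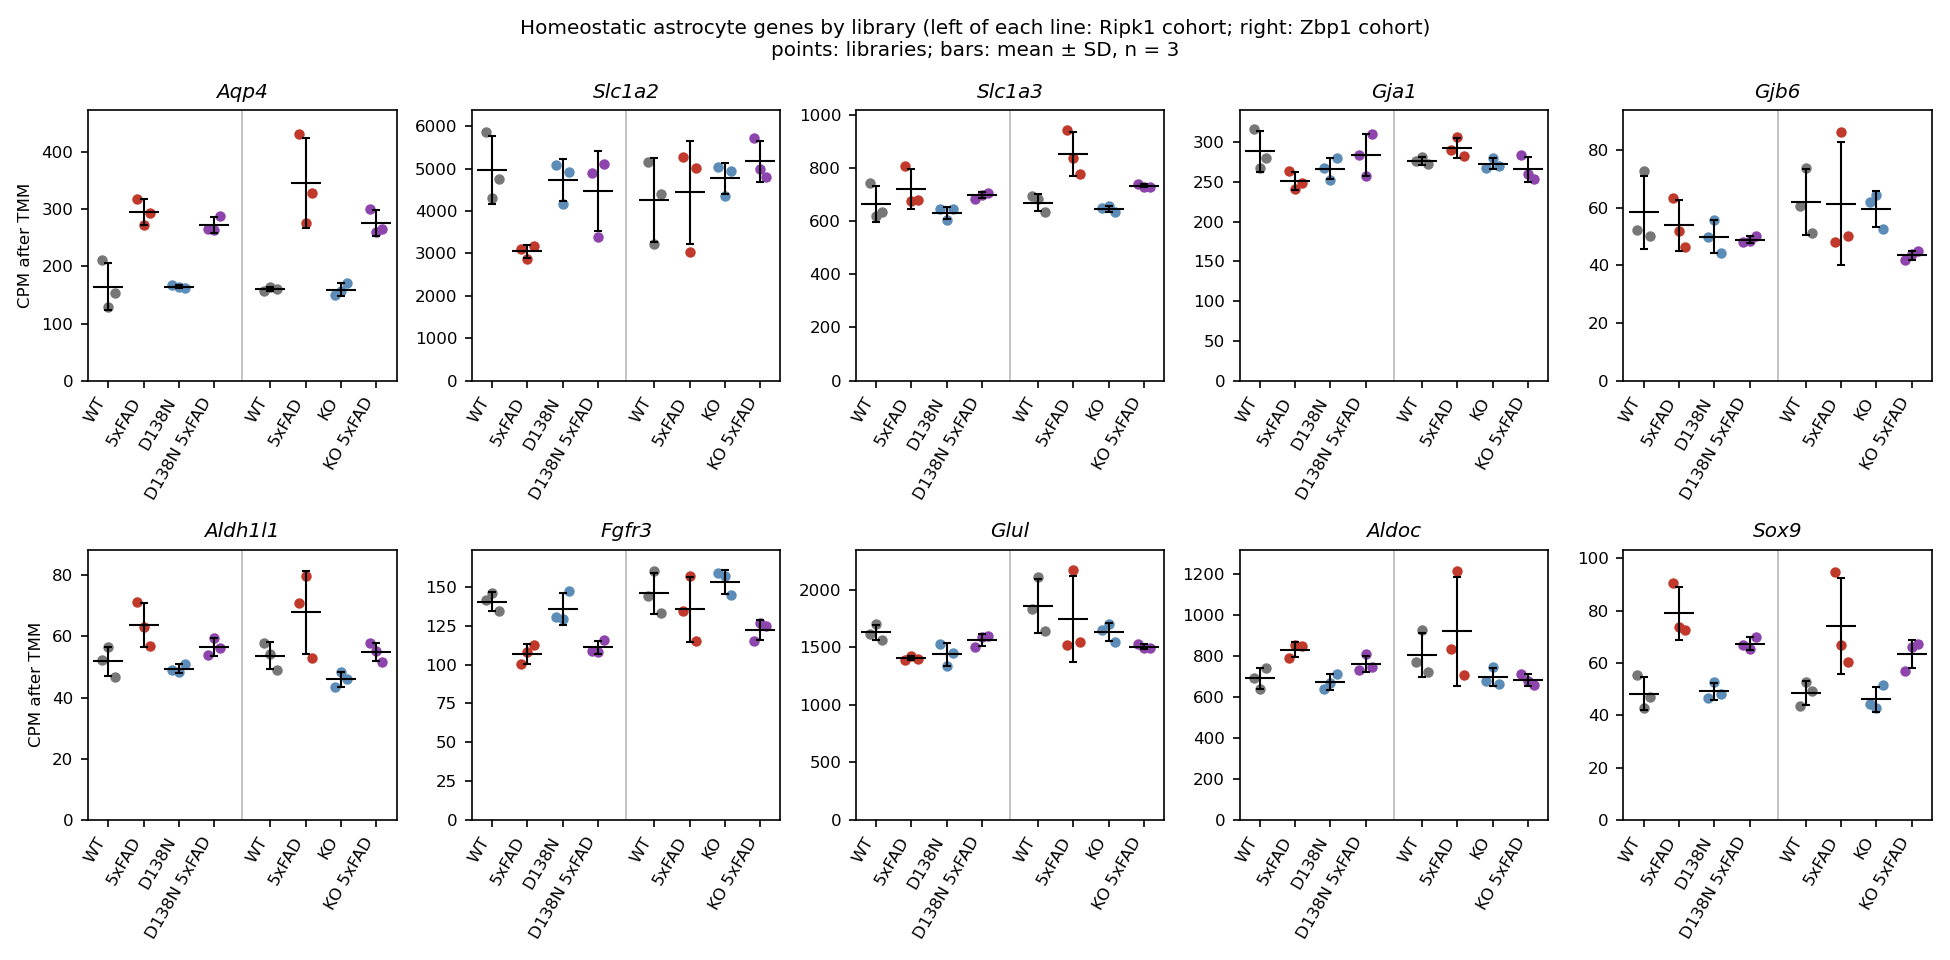
Each panel plots 1 gene, with CPM after TMM scaling on the vertical axis from 0 and the 8 genotype groups on the horizontal axis. Points are libraries and bars are the mean ± SD (n = 3). The Aqp4 panel shows every 5xFAD library above every library without the transgenes, and the Slc1a2 panel shows the 3 5xFAD libraries of the Ripk1 cohort between 2867 and 3175 CPM.

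In the Ripk1 cohort, 5xFAD split the homeostatic genes. Aqp4, Sox9, Aldh1l1 and Aldoc rose, Slc1a2 and Fgfr3 fell, and the other 4 were not called by the quasi-likelihood test of edgeR, whose p-values were adjusted over all 21376 genes tested. The 6 of 10 members called stand beside 16.1% of all genes called in this comparison, 8.11% higher and 8.02% lower. The median log2 fold change of the 10 was 0.00, beside 0.02 for all genes. Hippocampal bulk RNA cannot tell fewer cells of a type from less RNA per cell, and this holds for every value given here.

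Aqp4, the endfoot water channel, lay at 211, 129.7 and 154 CPM in the 3 WT libraries and at 318, 274 and 295 CPM in 5xFAD. The groups did not overlap, and the log2 fold change was 0.84 ± 0.13 (SE; edgeR adjusted p = 0.000921), a rise of 79.3%. Sox9 lay at 55.3, 42.7 and 46.9 CPM in WT and at 90.6, 73.8 and 72.6 CPM in 5xFAD. It rose in all 3 5xFAD libraries above every WT library, by 0.71 ± 0.11 on the log2 scale (edgeR adjusted p = 0.000702). Ependymal cells also express Aqp4 and Sox9, and the summed CPM of 5 ependymal markers was 14.1 to 37.4 in WT and 31.5 to 35.9 in 5xFAD, with none of the 5 called; its part in the result was not tested.

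The glutamate transporters did not move together. Slc1a2 fell from 5870, 4306 and 4764 CPM in WT to 3106, 2867 and 3175 CPM in 5xFAD. Every 5xFAD library lay below every WT library, and the log2 fold change was -0.71 ± 0.15 (edgeR adjusted p = 0.00788), so Slc1a2 fell by 38.8%. Slc1a3, its partner in glutamate clearance, lay at 744, 619 and 634 CPM in WT and at 807, 675 and 681 CPM in 5xFAD. Its groups overlapped and it was not called (log2 fold change 0.11 ± 0.09, edgeR adjusted p = 0.421). Glul, the enzyme downstream of both, lay at 1619, 1702 and 1568 CPM in WT and at 1393, 1426 and 1401 CPM in 5xFAD. The 3 5xFAD libraries lay below the 3 WT libraries, but the log2 fold change of -0.21 ± 0.07 did not pass (edgeR adjusted p = 0.0666), while DESeq2 called it at -0.22 (adjusted p = 0.00628). Glul has a pseudogene copy, Glns-ps1, between which reads could have been split, and oligodendrocytes also express Glul: the summed CPM of 8 oligodendrocyte markers was 5070 to 5980 in WT and 6560 to 8120 in 5xFAD.

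Fgfr3 was the other member that fell, from 142, 146 and 134 CPM to 100, 108 and 113 CPM. Its groups did not overlap (log2 fold change -0.39 ± 0.07, edgeR adjusted p = 0.00253). The gap junction genes were not called: Gja1 lay at 317, 268 and 280.1 CPM in WT and at 264, 241 and 249 CPM in 5xFAD, just below without overlap (log2 fold change -0.20 ± 0.08, edgeR adjusted p = 0.118). Gjb6 overlapped between the groups, at 50.04 to 72.8 CPM in WT and 46.4 to 63.4 CPM in 5xFAD. Thus 4 members lay higher and 4 lower without overlap, beside 17.7% and 17.1% of all genes.

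The metabolic markers rose by less. Aldoc lay at 691, 638 and 738 CPM in WT and at 789.7, 849.6 and 849.5 CPM in 5xFAD (log2 fold change 0.27 ± 0.08, edgeR adjusted p = 0.0292). Aldh1l1 lay at 52.2, 56.5 and 46.7 CPM in WT and at 71.4, 63 and 57 CPM in 5xFAD (0.30 ± 0.09, edgeR adjusted p = 0.0426). Neither gene's groups overlapped, but neither call held in every refit with 1 library left out. Aldh1l1 was not called without 5xFAD 1, 5xFAD 2, WT 1 or WT 3 (edgeR adjusted p up to 0.162), and Aldoc was not called without 5xFAD 2, 5xFAD 3, WT 1 or WT 2 (up to 0.117). Where the calls were lost, the estimates were 0.21 to 0.32 for Aldh1l1 and 0.21 to 0.28 for Aldoc. With 1 library left out 1757 to 3293 genes were called in all, beside 3449 with all libraries. The calls of Aqp4, Sox9, Slc1a2 and Fgfr3 held when any 1 library of the 2 groups was left out.

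In the Zbp1 cohort the same comparison gave 3 of 10 members called, all higher, beside 3.13% of 21274 genes called in either direction and 3% called higher (member median 0.14, all genes 0.00). Aqp4 rose most. It lay at 157, 163 and 161 CPM in WT, a narrow range, and at 432, 277 and 329 CPM in 5xFAD. The groups lay far apart (log2 fold change 1.11 ± 0.13, edgeR adjusted p = 0.000179), and the level was 115% higher. Slc1a3 lay at 695, 682 and 634 CPM in WT and at 943, 838 and 777 CPM in 5xFAD (0.35 ± 0.09, edgeR adjusted p = 0.0386). Sox9 lay at 43.7, 52.6 and 49.1 CPM in WT and at 94.8, 66.8 and 60.6 CPM in 5xFAD (0.61 ± 0.15, edgeR adjusted p = 0.0447). Neither gene's groups overlapped, yet both calls were lost without 5xFAD 1 or any 1 of the WT libraries (edgeR adjusted p up to 0.213 for Sox9 and 0.184 for Slc1a3). A fit of only the WT and 5xFAD libraries also lost both. With Gja1, 4 members lay higher without overlap, beside 8.28% of all genes, and 0 lower, beside 5.4%.

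Slc1a2 and Fgfr3, which fell in the Ripk1 cohort, were not called in the Zbp1 cohort. Slc1a2 lay at 5162, 3216 and 4409 CPM in WT and at 5279, 3047 and 5009 CPM in 5xFAD. The spread within each group was wider than the gap between them, with library 2 the lowest in both (log2 fold change 0.06 ± 0.19, 95% interval -0.34 to 0.47). Fgfr3 lay at 144, 160 and 134 CPM in WT and at 134, 157 and 115 CPM in 5xFAD (-0.11 ± 0.11). Aldoc reached 1213 CPM in 5xFAD 2, against 832 and 708 CPM in 5xFAD 1 and 3. The same library had the highest Glul (2175 CPM) and Gjb6 (86.1 CPM) of its group, and it is 1 of the 2 libraries low in Malat1. With both of those libraries left out, Aqp4 (1.27), Slc1a3 (0.39) and Sox9 (0.75) were still called by edgeR, with adjusted p of 1.95e-05, 0.0167 and 0.0189. Aldh1l1 lay at 71, 79.7 and 53 CPM in 5xFAD against 49 to 57.8 CPM in WT and was called only without 5xFAD 3 (0.49, edgeR adjusted p = 0.0245).

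The 5xFAD effect could be read again in mice with each mutation, against mutant controls that share no library with the comparisons above. Aqp4 rose in both. It lay at 167, 165 and 162 CPM in D138N and at 265, 264 and 288 CPM in D138N 5xFAD (log2 fold change 0.73 ± 0.13, edgeR adjusted p = 0.00514). It lay at 149, 158 and 171 CPM in KO and at 301.5, 260.5 and 265 CPM in KO 5xFAD (0.79 ± 0.13, edgeR adjusted p = 0.00568). All 12 libraries with the transgenes had 260.5 CPM or more of Aqp4 and all 12 without had 211 CPM or less, on scales set within each cohort, and the same order held in each cohort alone. The summed ependymal markers were 12.5 to 27.4 CPM in D138N and 28 to 43.8 CPM in D138N 5xFAD, with no overlap, and 18.1 to 24.1 and 20.7 to 35.6 CPM in KO and KO 5xFAD. Of the 5 markers 0 were called in either, and their part in the rise of Aqp4 and Sox9 was not tested. The call in KO mice was lost by a small margin without KO 1 (0.75, edgeR adjusted p = 0.0526).

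In D138N mice 3 of 10 members were called, beside 3.37% of all genes, with 2 higher beside 3.12% and 1 lower beside 0.257%. Sox9 lay at 46.5, 52.9 and 48.3 CPM in D138N and at 66.9, 65.3 and 70.1 CPM in D138N 5xFAD (0.46 ± 0.11, edgeR adjusted p = 0.0298). Fgfr3 fell from 131, 129.5 and 148 CPM to 109, 108 and 116 CPM (-0.29 ± 0.07, edgeR adjusted p = 0.0376). Neither gene overlapped between the groups. Both calls were lost without D138N 1, D138N 3 or any 1 of the D138N 5xFAD libraries, with edgeR adjusted p of 0.0511 to 0.242. Slc1a2 lay at 5098, 4172 and 4922 CPM in D138N and at 4902, 3384 and 5119 CPM in D138N 5xFAD. Those groups overlapped, with D138N 5xFAD 2 the lowest (-0.08 ± 0.15, edgeR adjusted p = 0.882). Without overlap 5 members lay higher and 1 lower, beside 11.3% and 7.87% of all genes.

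In KO mice Aqp4 was the 1 member called, beside 1.23% of all genes called and 1.18% called higher. Sox9 lay at 44.4, 42.6 and 51.6 CPM in KO and at 57.1, 66 and 67.1 CPM in KO 5xFAD, apart but not called (0.46 ± 0.15, edgeR adjusted p = 0.29). Fgfr3 lay at 159, 157 and 145 CPM and at 115, 127 and 125 CPM, also apart and not called (-0.33 ± 0.11, edgeR adjusted p = 0.317). Gjb6 lay at 61.8, 64.2 and 52.5 CPM and at 41.8, 43.8 and 44.9 CPM (-0.45 ± 0.19, edgeR adjusted p = 0.581). Each of these 3 genes showed complete separation of its libraries. The call depends on the fit. With only the KO and KO 5xFAD libraries edgeR called all 3 as well, with adjusted p of 0.0117 (Sox9), 0.00795 (Fgfr3) and 0.0081 (Gjb6). The 1.23% above belongs to the fit of all the cohort's libraries. For the smaller fit the number of all genes called is not given here, so its calls stand without that background. Altogether 4 members lay higher and 3 lower without overlap, beside 10.8% and 10.6% of all genes.

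**Figure D2:**
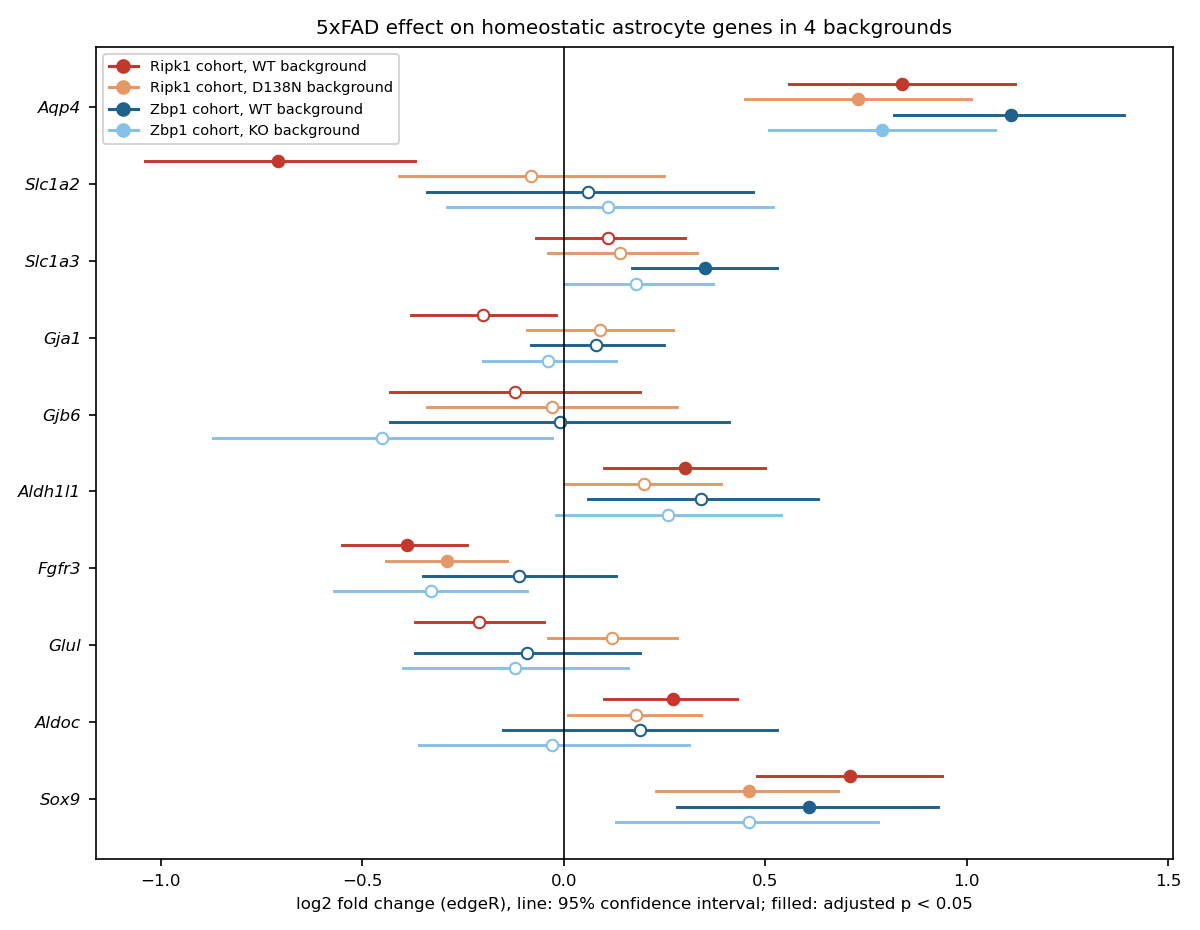
The log2 fold change of each gene with its 95% confidence interval in edgeR is plotted for 5xFAD against the matching control in 4 backgrounds; filled points were called. Aqp4 lies between 0.73 and 1.11 in all 4 and is filled in each, Fgfr3 lies below 0 in all 4, and Slc1a2 is well below 0 only on the WT background of the Ripk1 cohort.

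Set against 5xFAD, neither mutation gave a called member in edgeR. D138N 5xFAD against 5xFAD had 0 of 10 members called, beside 0.365% of all genes. At an unadjusted p under 0.05, 1 member and 2621 genes passed. That member was Slc1a2, with 4902, 3384 and 5119 CPM in D138N 5xFAD against 3106, 2867 and 3175 CPM in 5xFAD. All 3 mutant libraries lay above the 3 5xFAD libraries, and the level was 46.5% higher (log2 fold change 0.55 ± 0.15, edgeR adjusted p = 0.228). This call changed with the method. DESeq2 gave 0.56 with an adjusted p of 0.014, and edgeR without the filter on low counts gave 0.56 with 0.000666. Without the filter the estimate hardly moved while the adjusted p fell, and the number of all genes called in that fit is not given here. Without D138N 5xFAD 2, edgeR gave 0.71 with an adjusted p of 0.0148, and 673 genes were called, beside 78 with all libraries. The authors' deposited table, which sets 5xFAD over D138N 5xFAD, lists Slc1a2 at -0.56 with an adjusted p of 0.0215. The comparison shares its 5xFAD libraries with the fall of Slc1a2 against WT, so the values are given side by side and are not independent.

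Glul also lay higher without overlap in D138N 5xFAD (1507, 1594 and 1596 CPM, log2 fold change 0.15 ± 0.07, edgeR adjusted p = 0.421) and Sox9 lower (-0.23 ± 0.11, edgeR adjusted p = 0.41). Thus 2 members lay higher and 1 lower without overlap, beside 7.4% and 7.73% of all genes. The other members differed by -0.17 to 0.18 on the log2 scale.

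KO 5xFAD against 5xFAD had 0 of 10 members called and 0 genes called in all by edgeR (0%), while 5 members and 1875 genes had an unadjusted p under 0.05. DESeq2 called 153 genes and 0 members. The 5 members were Aqp4 (-0.33 ± 0.13), Slc1a3 (-0.22 ± 0.09), Gjb6 (-0.50 ± 0.19), Aldh1l1 (-0.30 ± 0.13) and Aldoc (-0.43 ± 0.16), with edgeR adjusted p of 0.522 to 0.544. All 5 lay lower in KO 5xFAD, 9 of 10 members had a log2 fold change below 0, and the median of the 10 was -0.22 beside -0.01 for all genes. Markers of other cells lay lower too. The summed CPM of 8 microglial markers was 576 to 702 in KO 5xFAD and 808 to 1390 in 5xFAD, with no overlap, and all 8 had log2 fold changes of -1.14 to -0.66, with 0 called (list median -0.84). The 8 oligodendrocyte markers summed to 4830 to 6010 CPM against 6640 to 7010 CPM (list median -0.29, 0 called), and Gfap differed by -0.74 ± 0.16 (edgeR adjusted p = 0.179). Their part in the members' values was not tested. Slc1a3 lay at 742, 731 and 730.3 CPM in KO 5xFAD against 943, 838 and 777 CPM in 5xFAD, with no overlap. Gjb6 did not overlap either, and these 2 stand beside 7.89% of all genes that lay lower without overlap. Without WT 2 and 5xFAD 2 the differences of Aldoc and Gjb6 came to -0.19 for each, and that of Aqp4 to -0.48 (edgeR adjusted p = 0.117). Without the filter on low counts edgeR called Gjb6 (adjusted p = 0.0214) and Aldoc (0.0133). For that fit the number of all genes called is not given here.

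Without the transgenes edgeR called no member for either mutation, while 9 of 10 members lay below 0 in D138N against WT (median -0.07) and 8 of 10 in KO against WT (median -0.05). D138N against WT had 0 members and 0 genes called by edgeR (0%), with 1 member and 514 genes at an unadjusted p under 0.05, and DESeq2 called 0 genes. That member was Glul, at 1528, 1335 and 1452 CPM in D138N and below all 3 WT libraries (-0.18 ± 0.07, edgeR adjusted p = 1), beside 4.12% of all genes lower without overlap. KO against WT also had 0 members and 0 genes called by edgeR (0%), with 0 members and 779 genes at an unadjusted p under 0.05, and DESeq2 called 1 gene and 0 members. Aldh1l1 lay lower without overlap, at 43.4 to 48.4 CPM in KO (-0.22 ± 0.13, edgeR adjusted p = 0.942), beside 5.57% of all genes. The 95% intervals bound these differences: for Aqp4 they ran from -0.28 to 0.28 in D138N and from -0.29 to 0.27 in KO, and for Slc1a2 from -0.41 to 0.26 and from -0.24 to 0.57. Those that reached lowest were Gjb6 in D138N (-0.53 to 0.08) and Aldoc (-0.55 to 0.13) and Aldh1l1 (-0.50 to 0.06) in KO, so a moderate decrease of these genes was within the intervals.

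**Figure D3:**
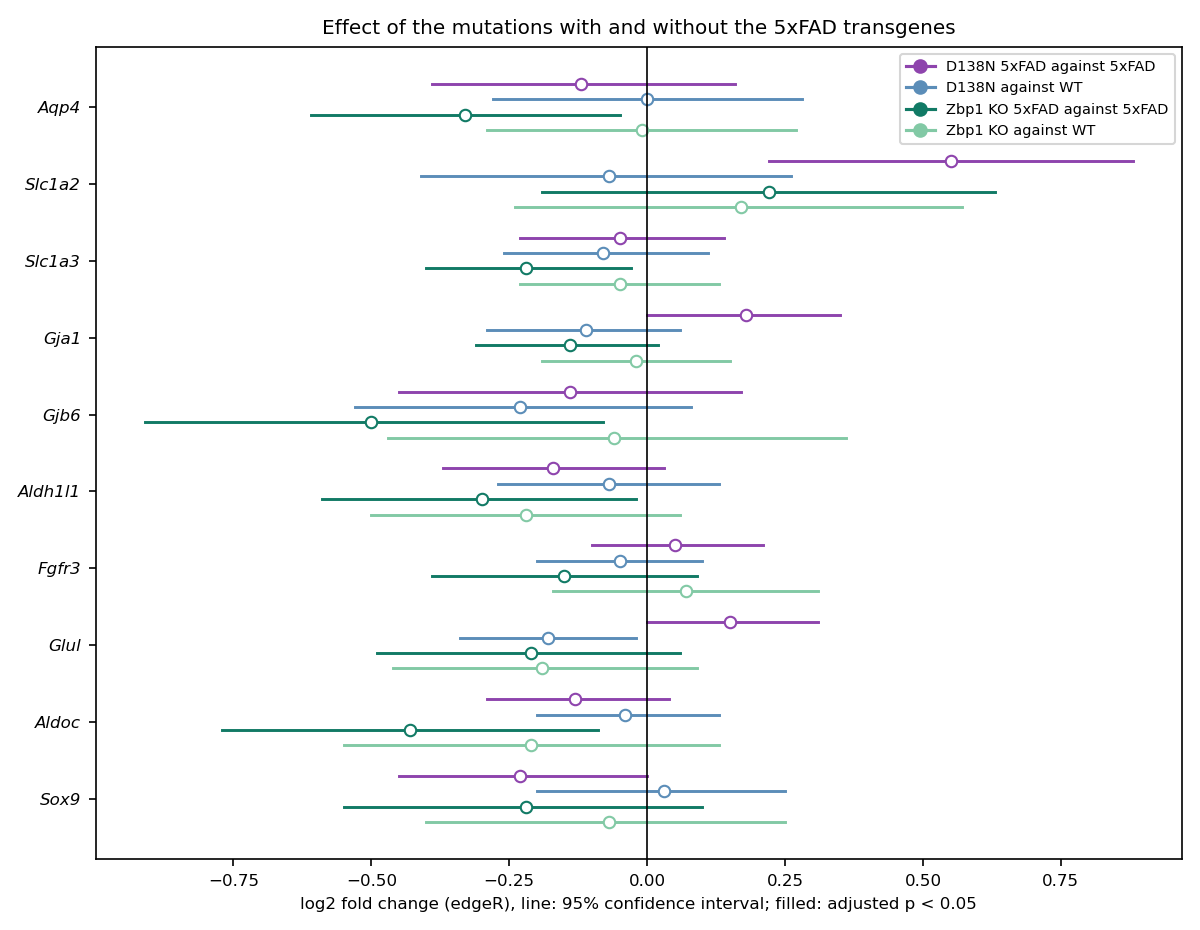
The log2 fold change of each gene with its 95% confidence interval is plotted for each mutation with and without the 5xFAD transgenes; no point is filled, since edgeR called none. Slc1a2 in D138N 5xFAD against 5xFAD (0.55) lies farthest to the right, and in KO 5xFAD against 5xFAD 9 of 10 points lie below 0.

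The difference between backgrounds was tested as an interaction, which is the 5xFAD effect in mutant mice minus that in WT mice. For D138N edgeR called 0 members, beside 0.0281% of all genes, and 3 members and 1596 genes had an unadjusted p under 0.05. These were Slc1a2 (0.63 ± 0.22, edgeR adjusted p = 0.637), Glul (0.33 ± 0.10, edgeR adjusted p = 0.581) and Gja1 (0.29 ± 0.12, edgeR adjusted p = 0.656). DESeq2 called 81 genes and 0 members, and edgeR without the filter on low counts called Slc1a2 (0.64, adjusted p = 0.0249). Again the estimate hardly moved without the filter, and the number of all genes called in that fit is not given here. For KO, 0 members and 0 genes were called by edgeR and by DESeq2 (0%), with 0 members and 480 genes at an unadjusted p under 0.05.

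The 2 cohorts were compared in 1 fit of 24 libraries and 22565 genes. The 5xFAD effect on Slc1a2 was lower in the Ripk1 cohort by 0.78 on the log2 scale (estimate -0.78 ± 0.26), which did not pass the adjustment (edgeR adjusted p = 0.404). It passed without the Zbp1 cohort's 5xFAD 2 (-0.99, edgeR adjusted p = 0.0346) and without the filter on low counts (-0.75, 0.00143). With that library left out 593 genes were called in all, and without the filter that number is not given here. With all libraries and the filter, edgeR called no member and no gene (0%), with 3 members and 2063 genes at an unadjusted p under 0.05. DESeq2 called 29 genes and 0 members. The other 2 members were Gja1 (-0.29 ± 0.11) and Fgfr3 (-0.29 ± 0.14). So a fall of Slc1a2 and Fgfr3 in 1 cohort and not in the other is not shown to differ between them by this test.

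Slc1a2 varied with a feature of whole libraries, the share of ribosomal protein transcripts. The 6 libraries with the highest summed CPM of 82 cytosolic ribosomal protein genes (9016 to 14108) were the 6 libraries with the lowest Slc1a2 of the 24 (2867 to 3384 CPM), with CPM scaled within each cohort. They were 5xFAD 1, 2 and 3 and D138N 5xFAD 2 of the Ripk1 cohort, and WT 2 and 5xFAD 2 of the Zbp1 cohort, so they come from 4 genotypes. The other 18 libraries had 6130 to 8351 summed CPM of ribosomal protein genes and 4172 to 5870 CPM of Slc1a2, which leaves a gap in both measures, also within each cohort. Aldoc ran the other way, with 789.7 to 1213 CPM in the 6 and 637 to 832 CPM in the 18. Because all 3 5xFAD libraries of the Ripk1 cohort are among the 6 and no WT library of that cohort is, genotype and ribosomal protein level cannot be told apart there.

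With the ribosomal protein level as a covariate, chosen after the data were seen, 2 of the 6 calls in the Ripk1 cohort remained. Over all genes 271 were called in that fit, beside 3449 without the covariate, so the loss of calls was not particular to the members. Aqp4 (1.13, edgeR adjusted p = 0.0253) and Sox9 (0.94, 0.0192) were called as before. The estimate for Slc1a2 went to -0.07 ± 0.20 (edgeR adjusted p = 0.948) and that for Aldoc to 0.09 (0.863). Fgfr3 kept its size at -0.36 without passing (edgeR adjusted p = 0.267), and so did Aldh1l1 at 0.32 (0.535). For D138N 5xFAD against 5xFAD the Slc1a2 estimate went from 0.55 to 0.23. In the Zbp1 cohort the same 3 members were called under this covariate as without it, at 1.15 (Aqp4), 0.34 (Slc1a3) and 0.59 (Sox9). Over all genes 1742 were called in that cohort's fit, beside 665 without the covariate. What sets the ribosomal protein level of a library was not tested.

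**Figure D4:**
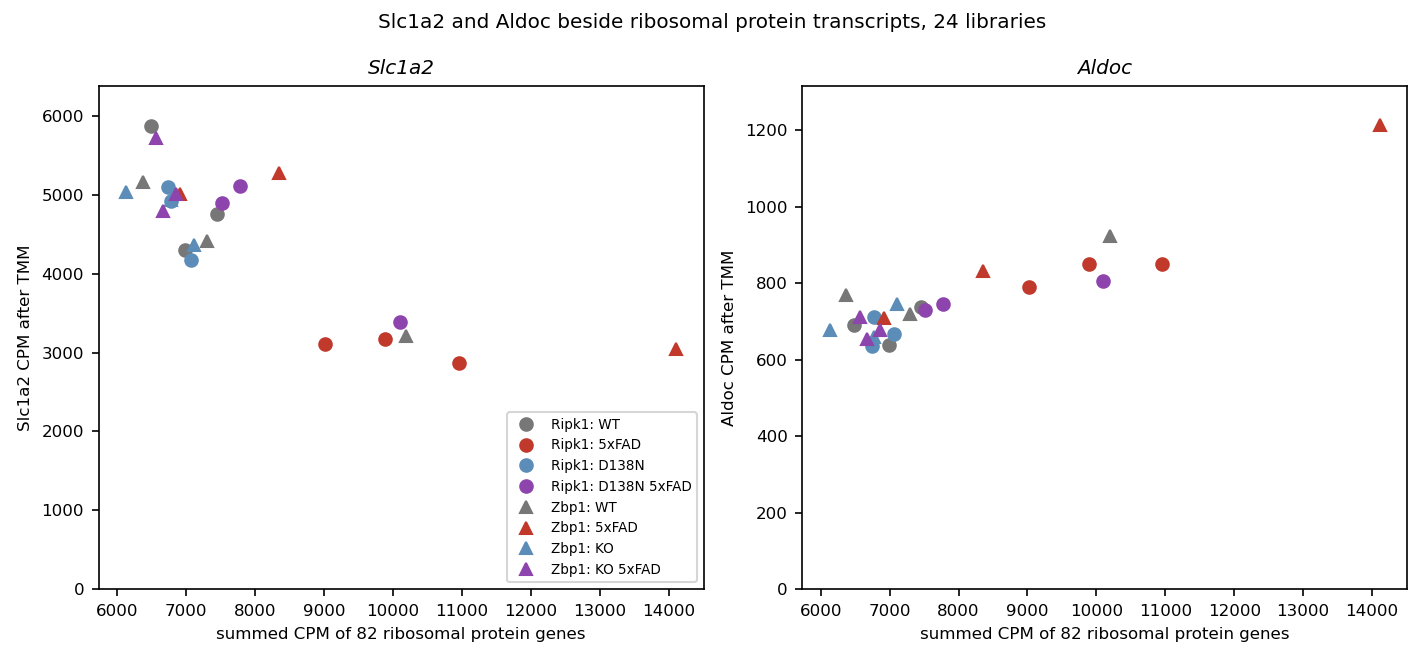
CPM of Slc1a2 (left) and Aldoc (right) are plotted against the summed CPM of 82 ribosomal protein genes, 1 point per library, with circles for the Ripk1 cohort and triangles for the Zbp1 cohort. The 6 points farthest right are the 6 lowest for Slc1a2, and the rightmost, at 14108, is the highest for Aldoc (1213 CPM).

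Across the 24 libraries the 10 genes did not vary as 1 block. With cohort means removed, the correlation of log2 CPM over the 45 pairs of members ran from -0.75 to 0.93 with a median of 0.20, and 27 pairs were above 0. Among Aqp4, Sox9, Slc1a3 and Aldh1l1, r was 0.93 for Aqp4 with Sox9, 0.85 for Aqp4 with Slc1a3, 0.82 for Slc1a3 with Sox9 and 0.81 for Slc1a3 with Aldh1l1. Fgfr3 ran against Aqp4 (-0.75), and Slc1a2 against Aldoc (-0.72). With genotype means removed, Aqp4 and Sox9 stayed alike (0.68), but Aldh1l1 went from 0.67 to -0.05 with Aqp4 and from 0.71 to 0.21 with Sox9, and Fgfr3 with Aqp4 went from -0.75 to -0.30. In the same terms Glul went with Aldoc (0.80) and Gjb6 (0.77). All points share library preparation and depth, so these values are descriptions with no test.

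**Figure D5:**
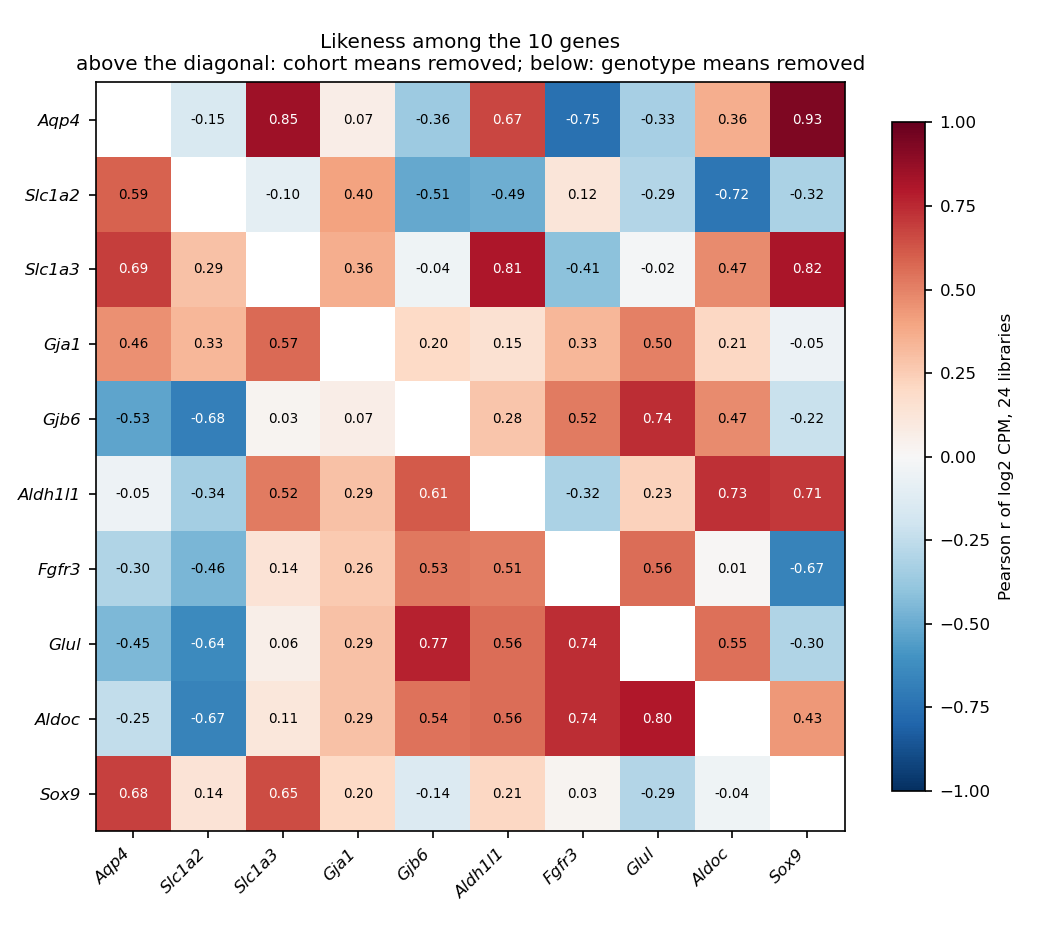
Each cell is the Pearson r of log2 CPM between 2 of the 10 genes over 24 libraries, above the diagonal with cohort means removed and below it with genotype means removed. The cell of Aqp4 with Sox9 is the highest above the diagonal (0.93), and the row of Slc1a2 holds cells below 0, the lowest at -0.72 with Aldoc.

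Among 16305 genes with a mean of at least 1 CPM, the 3 most like each member were named by the size of r, with cohort means removed. Genotype means were not removed, so a difference between genotypes that both genes share is part of r. For the neighbours of all members, r with genotype means removed is not given here. Aqp4 was most like Slc14a1 (r = 0.983, rho = 0.908), a urea transporter, Osmr (0.97), the oncostatin M receptor, and Cd33 (0.967), a myeloid surface receptor. Sox9 was most like Cd33 (0.931), Plcb2 (0.928) and Lcp1 (0.926), and Slc1a3 was most like Lrrc3 (0.882), Syk (0.876) and Sirpa (0.869). Cd33, Plcb2, Lcp1 and Syk are genes of myeloid cells such as microglia. The summed CPM of 8 microglial markers was 253 to 351 in WT and 949 to 993 in 5xFAD of the Ripk1 cohort, and 313 to 382 and 808 to 1390 in the Zbp1 cohort. Of the 8, 8 rose in the first and 7 in the second, and their part in the members' values was not tested. Aldh1l1 was most like Sparc (0.925), Mlc1 (0.904) and Hmox1 (0.888).

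The remaining members had other neighbours. Slc1a2 was most like Ankrd52 (0.945), Zfp318 (0.941) and Lrp4 (0.94). Aldoc was most like the ribosomal protein genes Rpsa (0.954), Rpl6 (0.944) and Rpl4 (0.939). Fgfr3 was most like Ccdc85c (0.879), Slc6a11 (0.867), the GABA transporter GAT-3 of astrocytes, and Rusc1 (0.859). Glul was most like Htra1 (0.892), its pseudogene Glns-ps1 (0.886) and Pramef8 (0.885). Gjb6 was most like Prodh (0.843), Ldhb (0.834) and Tsc22d3 (0.832), and Gja1, with the weakest neighbours, was most like Sfxn5 (0.797), Tmem229a (0.757) and Mvb12b (0.743).

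Genes that work beside the members were counted from lists by role. Of 15 genes of astrocytic potassium, GABA and amino acid transport, 0 rose and 3 fell in 5xFAD against WT of the Ripk1 cohort (list median -0.05, all genes 0.02). Among those that fell were the GABA transporter Slc6a11 (-0.75 ± 0.09, edgeR adjusted p = 0.000113) and the bicarbonate transporter Slc4a4 (-0.36 ± 0.11). In the Zbp1 cohort 1 of the 15 rose, the lactate transporter Slc16a1 (0.39 ± 0.09, edgeR adjusted p = 0.0338), and 0 fell. In a list of 15 genes of the dystrophin complex and aquaporin anchoring, which also holds the aquaporins Aqp1 and Aqp9, Mlc1 alone was called. Its log2 fold change was 0.53 (Ripk1 cohort), 0.50 (Zbp1 cohort) and 0.43 (D138N mice). No gene of this list was called in KO mice. Of 12 connexins and pannexins 2 rose and 1 fell in the Ripk1 cohort, among them Gja4, a connexin of vessels (0.83), and Gjd2, of neurons (-0.81). None of the 12 was called in the other cohort (0 of 12).

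Around Slc1a2 and Glul, 1 of 14 tested genes of glutamate and ammonia metabolism rose and 4 fell in the Ripk1 cohort. Slc1a5 rose (1.51 ± 0.30), and the glutamine carriers Slc38a2 (-0.49 ± 0.07) and Slc38a1 (-0.54 ± 0.12) and the GABA enzymes Gad1 (-0.65) and Gad2 (-0.94) fell. The last pair are neuronal, and the summed CPM of 8 neuronal markers was 7440 to 7770 in WT and 6380 to 7040 in 5xFAD, and its part in the members' values was not tested. Around Fgfr3, 3 of 18 genes of FGF signalling rose and 4 fell. The receptor-like Fgfrl1 (0.87 ± 0.18), the receptor Fgfr4 (2.34 ± 0.74) and the FGF target and inhibitor Spry1 (0.49 ± 0.13) rose. The FGF target Etv5 (-0.59 ± 0.13), Fgf12 (-0.56 ± 0.13) and the inhibitors Spred1 (-0.48 ± 0.12) and Spred2 (-0.33 ± 0.09) fell, so FGF targets were called in both directions. Fgfrl1 (0.65) and Fgf2 (0.70) rose in the Zbp1 cohort and 0 fell. No gene of either list was called in KO mice.

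Around Aldh1l1 and Aldoc, few genes were called in each list. Aldh1l2, the mitochondrial relative of Aldh1l1, rose in all 4 backgrounds, by 1.14 (Ripk1 cohort), 1.05 (Zbp1 cohort), 1.29 (D138N mice) and 1.20 (KO mice) on the log2 scale, each with an edgeR adjusted p of 0.0333 or less. Of 19 genes of glycolysis and lactate, 2 rose (Ripk1 cohort) and 3 rose (Zbp1 cohort), with 0 lower. Hk2, a hexokinase, was among them in both, at 1.14 and 1.41. Around Sox9, 2 of 17 glial transcription factors rose in the Ripk1 cohort, Id3 (0.95) and Hes1 (0.67), and Rorb fell (-0.62), while Id4 (0.43) and Notch2 (0.71) rose in the Zbp1 cohort.

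Of 24 other astrocyte markers 8 rose and 3 fell in the Ripk1 cohort (median 0.18). Prdx6 (0.91), Apoe (1.13), Cst3 (1.03) and Clu (0.83) rose, of which microglia also express Apoe and Cst3, and Cbs (-0.52), Gpc5 (-0.41) and Lgr6 (-0.62) fell. Clu (0.66), Apoe (1.03) and Prdx6 (0.76) rose in the Zbp1 cohort and 0 fell. Reactive astrocyte genes moved on another scale than the members: 15 of 25 rose in each cohort, with list medians of 1.8 and 1.5. Gfap lay at 291 to 401 CPM in WT and 2303 to 2392 CPM in 5xFAD of the Ripk1 cohort (2.69 ± 0.15), and at 457 to 564 and 2091 to 3643 CPM in the Zbp1 cohort (2.46 ± 0.17). In D138N 5xFAD against 5xFAD 3 of the 25 fell, Cxcl10 (-2.25), Gbp2 (-1.42) and H2-D1 (-1.26), and 0 of 10 members did. Bulk RNA does not show which cells these 3 transcripts came from. Gfap was not called in that comparison (-0.26 ± 0.14, edgeR adjusted p = 0.466).

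In the ZBP1 immunoprecipitation the members were rare, with 13 to 136 counts each, and gene symbols took 7.62% to 8.97% of the 5.7 to 9.4 M counts per library, the rest being repeat families. With 1 library per arm there is no test, and intervals cover counting error only. The median log2 ratio of IP over input of the 10 was -0.10 in WT and -0.07 in 5xFAD. Beside it stand -0.30 and -0.23 over the 18753 genes with at least 40 counts in the 4 libraries together. A small count was added before the ratios of those genes and not before those of the members. Sox9 lay below 0 in both, with 48 input and 14 IP counts in WT (-1.27, 95% interval -2.25 to -0.39) and 53 and 16 in 5xFAD (-1.08, -1.99 to -0.25). Slc1a2 had 129 input counts in each genotype, with 53 IP counts in WT (-0.78, -1.27 to -0.31) and 136 in 5xFAD (0.72, 0.36 to 1.08). Its 2 ratios thus lay on opposite sides of 0 in these libraries, and the intervals of the other 8 members spanned 0 in both genotypes.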

How the data were processed

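Hippocampal polyadenylated RNA was measured in 24 libraries of 2 cohorts and ZBP1 immunoprecipitated RNA or its input in 4. The authors deposited counts of reads per Ensembl gene ID. Their deposited tables of comparisons hold log2 fold changes, each with its p-value, raw and adjusted, per the file headers. HISAT2, DESeq2 1.42.1 and edgeR 4.0.16 are named by the submitters' processing notes, along with builds mm10 (GRCm38) and mm39 (GRCm39). Which build and which counting options were used, strand included, is not given in the sources used here. The coordinates printed are therefore only those of the RefSeq promoter table in its own build, and reads of overlapping genes could have been split.

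Each cohort's 12 libraries were fitted together (R 4.3.3, edgeR 4.0.16, TMM, filterByExpr, quasi-likelihood test, Benjamini-Hochberg over all genes tested, called at adjusted p under 0.05), because 3 libraries per genotype say little about spread. All 10 members passed the filter in both cohorts. CPM were computed after TMM within a cohort, and levels are not compared between genes; ranges over both cohorts are shown without a test. No label states that the 3 libraries of a group are from different animals, and p-values then measure only the spread between libraries. Libraries of a group differed beyond counting noise (chi-square over its degrees of freedom, 7.28 to 78.1). IP over input was scaled to the gene counts of each library. Scripts were tested on simulated data.

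Alternatives were DESeq2 1.42.0, other scalings, no filter, 2-group fits, a replicate block, libraries left out and, added after seeing the data, a ribosomal protein covariate. The members, lists and tests were chosen with earlier results of these data known. Named were all 10 members, up to 4 called genes per list and direction with the smallest adjusted p, and the 3 genes most like each member by Pearson r (prior count 2, mean of at least 1 CPM). Scaled heat-map tables were not used. Some genes are not reported here.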

Additional observations from a re-analysis of the deposited data

How the results depend on the processing

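Each member in each comparison was refitted under other settings, and the direction and call were unchanged in 761 of the refits that kept all libraries or left out 1 fixed pair, with 12 calls lost, 17 gained and 20 directions turned. When 1 library was left out, 759 were unchanged, 27 calls were lost, 3 gained and 51 directions turned. Directions turned only for members that edgeR did not call. The cause was not tested. Without the filter on low counts, edgeR called 1 member in D138N 5xFAD against 5xFAD, 1 in the D138N interaction, 2 in KO 5xFAD against 5xFAD, 3 in KO 5xFAD against KO and 1 in the cohort difference. DESeq2 called 1 in D138N 5xFAD against 5xFAD. Fits of only 2 groups called 1 in 5xFAD against WT of the Zbp1 cohort and 4 in KO 5xFAD against KO. Without WT 2 and 5xFAD 2 of the Zbp1 cohort, 3 were called in KO 5xFAD against KO. The share of all genes called under each of these settings is not given here, so these member counts stand without that background. The ribosomal protein covariate, added after seeing the data, called 2 in 5xFAD against WT of the Ripk1 cohort and 3 in KO 5xFAD against KO. Over all genes that covariate called 271 where edgeR without it called 3449 in 5xFAD against WT of the Ripk1 cohort, and 1742 where it called 665 in the Zbp1 cohort. For KO 5xFAD against KO the number of all genes called under the covariate is not given here, so those 3 members stand without that background. The other scalings kept the number of calls within 1.5 times.

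The labels do not say what the replicate numbers share, and whether they pair the libraries was not tested. Same-numbered libraries correlated at -0.22 to 0.24 in the Ripk1 cohort (median 0.03) and at -0.11 to 0.40 in the Zbp1 cohort (median 0.07). Differently numbered libraries had medians of -0.01 and -0.04, and 7 of 12 and 8 of 12 libraries were best with their own number. The number best with their own number by chance is not given here. These correlations are not of raw levels, so values near 0 do not mean that the libraries were unlike. With the number as a replicate block, edgeR called 6 members in 5xFAD against WT of the Ripk1 cohort, 3 in the Zbp1 cohort, 3 in D138N mice, 1 in KO mice and 0 in every other comparison, each the members called without the block. Over all genes the counts were 3597, 772, 766 and 331, beside 3449, 665, 721 and 261 without the block. In KO 5xFAD against 5xFAD 41 genes were called with the block, beside 0 without it.

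Turned directions, as log2 fold changes, were as follows. With library totals only, Gjb6 was 0.01 in D138N 5xFAD against D138N and 0.01 in 5xFAD against WT of the Zbp1 cohort. Without WT 2 and 5xFAD 2, Slc1a2 was -0.01 and Gjb6 0.10 in KO 5xFAD against 5xFAD and KO against WT, and in the KO interaction Slc1a2 was -0.01, Aldh1l1 0.02 and Glul 0.05. With the ribosomal covariate, Gja1 was 0.08 in 5xFAD against WT of the Ripk1 cohort, Slc1a2 0.26 and Gjb6 0.04 in D138N 5xFAD against D138N, and Slc1a3 -0.05 in the D138N interaction. With the same covariate Aldoc was -0.01 in 5xFAD against WT of the Zbp1 cohort and -0.05 in the cohort difference, and Gjb6 was 0.13 in KO against WT. In KO 5xFAD against 5xFAD it gave Slc1a2 -0.15, Fgfr3 0.03 and Glul 0.03, and in the KO interaction Slc1a2 -0.15, Aldh1l1 0.01 and Glul 0.10.

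With each library left out in turn, the number of members called ran from 4 to 5 in 5xFAD against WT of the Ripk1 cohort, 1 to 4 in the Zbp1 cohort, 1 to 3 in D138N mice, 0 to 1 in KO mice, 0 to 1 in D138N 5xFAD against 5xFAD and 0 to 1 in the cohort difference. Over all genes these counts ran from 1757 to 3293, 413 (without 5xFAD 1) to 1103 (without 5xFAD 2), 438 to 741, 123 to 168 (261 with all libraries), 14 (without D138N 5xFAD 3) to 673 (without D138N 5xFAD 2; 78 with all), and 0 to 593 (without the Zbp1 cohort's 5xFAD 2; 0 with all). In KO 5xFAD against 5xFAD they ran from 0 to 82 (without 5xFAD 3), so the shares of all genes called given beside the members move with single libraries. Directions that turned had these ranges. In 5xFAD against WT, Gjb6 ran from -0.25 to 0.07 (Ripk1 cohort), and Slc1a2 from -0.10 to 0.27, Gjb6 from -0.34 to 0.15, Aldoc from -0.06 to 0.35 and Glul from -0.28 to 0.01 (Zbp1 cohort). In D138N 5xFAD against 5xFAD, Slc1a3 ran from -0.09 to 0.04. In D138N against WT, Aldoc ran from -0.09 to 0.02, Slc1a2 from -0.17 to 0.06, Sox9 from -0.06 to 0.13 and Slc1a3 from -0.13 to 0.01. In D138N 5xFAD against D138N, Gjb6 ran from -0.10 to 0.06 and Slc1a2 from -0.19 to 0.09. In the D138N interaction, Slc1a3 ran from -0.06 to 0.12, Gjb6 from -0.10 to 0.22 and Aqp4 from -0.33 to 0.03. In KO against WT, Aqp4 ran from -0.06 to 0.04 and Gjb6 from -0.18 to 0.10, and in KO 5xFAD against KO, Aldoc ran from -0.06 to 0.02. In the KO interaction, Sox9 ran from -0.28 to 0.06, Slc1a2 from -0.16 to 0.22, Aldh1l1 from -0.24 to 0.05, Glul from -0.13 to 0.16 and Aldoc from -0.38 to 0.03. In the cohort difference, Sox9 ran from -0.04 to 0.31, Aldh1l1 from -0.21 to 0.08, Gjb6 from -0.28 to 0.21, Glul from -0.24 to 0.06 and Aldoc from -0.09 to 0.32. In the immunoprecipitation, totals over all rows in place of gene rows gave medians of 0.03 (WT) and -0.24 (5xFAD). Depth limits mainly that assay, with 13 to 136 counts per member, and WT 1 of the Zbp1 cohort, with 8.4 M counts.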
